A study of Mus musculus with 6 samples.

Results

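The genes described here make and use small RNAs: the nuclear processors Drosha and Dgcr8, the exporter Xpo5, the cytoplasmic processor Dicer1 with its partners Tarbp2 and Prkra, and the Argonautes Ago1, Ago2, Ago3 and Ago4. They were chosen by name, as the proteins that a hairpin expressed in a cell passes through, and each of the 10 was found by its symbol among 43629 mouse genes in the deposited count table. M1 is a mouse neuroblastoma cell line. One group of 3 libraries, labelled WT in genotype, expressed a non-targeting short hairpin RNA (shNT). The other 3, labelled as IGF2BP1 knockdown, expressed a hairpin against Igf2bp1 (shIGF2BP1). All 6 cultures had received doxycycline at 4 to 6 µg/ml for 6 days to switch the hairpin on, so no library shows the machinery without an induced hairpin. The labels give neither the hairpin sequences nor the vector, nor whether the cells are 1 clone, and they do not say whether a hairpin enters at the Drosha or the Dicer step. Nor do they say that the replicates were separate cultures: each p-value rests on the spread among these libraries, and that spread may be technical.

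A lower level of the targeted message was not shown in the libraries labelled as the knockdown. Igf2bp1, an RNA-binding protein gene, had 37, 175 and 201 counts in shNT and 67, 35 and 311 in shIGF2BP1. Both groups span low and high libraries, and they overlap. Its log2 fold change of shIGF2BP1 over shNT was 0.25, with a standard error of 0.79 and an adjusted p of 0.966 by edgeR, and it ran from -1.24 without shIGF2BP1 replicate 3 to 0.76 without shIGF2BP1 replicate 2. The names shNT and shIGF2BP1 therefore stand for the labels throughout, and a direction between them is one between libraries as labelled.

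Depth and identity of the libraries bear on these values as follows. Totals ran from 25119655 to 35373076 counts per library, and levels are given as CPM, counts scaled to library size after TMM normalisation. Of the sympathetic markers of neuroblastoma, Hand2, Gata3, Isl1 and Mycn were measured, while Th and Dbh had 0 counts in every library. In bulk RNA, fewer cells of a type and less of its RNA per cell cannot be told apart. The 6 mesenchymal neuroblastoma markers gave a median log2 fold change of -0.55, all of them negative and none called by edgeR. Their summed level was 5530 to 5800 CPM in shNT and 3660 to 4420 CPM in shIGF2BP1. Vim and Fn1 make up most of that sum and ran in opposite directions across shNT. Vim had 3320, 2700 and 1150 CPM in shNT and 2390, 2180 and 2250 CPM in shIGF2BP1. Fn1 had 1960, 2840 and 4080 CPM in shNT and 1120, 2080 and 1560 CPM in shIGF2BP1. The groups overlapped for both. Prrx1 was the 1 of the 6 without overlap, lower in shIGF2BP1, as in 5.59% of all tested genes. The summed level of the 7 macrophage and leukocyte markers was 8.29 to 15.6 CPM in shNT and 4.63 to 6.38 CPM in shIGF2BP1, with Adgre1 at 0 in all libraries and Ptprc at 1 count in 1 library. Most of that sum is Cd68, a lysosomal protein, at 7.78 to 14.6 CPM in shNT and 3.14 to 5.56 CPM in shIGF2BP1. Fcer1g went the other way, with 0, 6 and 1 counts in shNT and 10, 20 and 10 in shIGF2BP1, and Lyz2 had a log2 fold change of 0.06, so the markers did not all move one way. The part of either marker list in the results was not tested.

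A microRNA begins as a hairpin within a longer transcript. Drosha, a ribonuclease held by its RNA-binding partner DGCR8 in a complex called the microprocessor, cuts the hairpin out, exportin 5 (Xpo5) carries it to the cytoplasm, and Dicer trims it to a short duplex with the help of TRBP (Tarbp2) or PACT (Prkra). An Argonaute protein keeps 1 strand and uses its seed, bases 2 to 8, to find target messages. AGO2 is the Argonaute known for cutting targets efficiently, and the other Argonautes act mainly by recruiting GW182 proteins, which bring in the enzymes that shorten the poly-A tail and remove the cap.

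Sequences of the microRNA hairpins that sit inside the Dgcr8 message come first, because they lie within a member's own message. Dgcr8 counts were far below those of the tested members. DGCR8 and Drosha are known to cut this message at these hairpins, which is how the complex lowers its own supply. Whether such cutting has a part in the Dgcr8 counts here was not tested. The Mir1306 hairpin lies in the minus strand at chr16:18284239-18284317 (GRCm38, sequence from RefSeq), inside an exon of Dgcr8 and inside the coding sequence of 2 annotated Dgcr8 transcripts. Capitals mark the 5p and 3p microRNA arms.
Mir1306 hairpin: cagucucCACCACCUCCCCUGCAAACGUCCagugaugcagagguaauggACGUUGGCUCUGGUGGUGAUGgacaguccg
A second hairpin, at chr16:18284550-18284637, lies in an exon outside the coding sequence and gives miR-3618. Its arms are shown with the seed in capitals.
mmu-miR-3618-5p: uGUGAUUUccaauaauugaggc
mmu-miR-3618-3p: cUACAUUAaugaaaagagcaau

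Dgcr8 transcripts were almost undetected while its partner Drosha was well measured. Dgcr8 (ENSMUSG00000022718, minus strand, chr16:18253948-18289246) had 0, 3 and 4 counts in the shNT libraries, in replicate order, and 4, 52 and 4 in the shIGF2BP1 libraries. Drosha (ENSMUSG00000022191, plus strand, chr15:12824815-12935291) had 4243, 5942 and 5715 counts in shNT and 3596, 4597 and 4965 counts in shIGF2BP1. In 5 of the 6 libraries Dgcr8 did not pass 4 counts, and shIGF2BP1 replicate 2 stood apart with 52. Dgcr8 was too low for the test of all genes. Its pooled normalised count was 9.33 times higher in shIGF2BP1, with a 95% counting interval from 4.26 to 24.2, but without shIGF2BP1 replicate 2 it was 2.06 (0.654 to 6.68). Such intervals carry only counting error, because they pool the libraries of a group and leave out the spread between libraries. PCR copies of a molecule cannot be told from new molecules here, so that error may be larger than shown. When every gene with a count was tested without a filter, Dgcr8 had a log2 fold change of 3.02 ± 0.96 (SE) and an adjusted p of 0.142 by edgeR, and an adjusted p of 0.344 by DESeq2.

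Low counts around Dgcr8 were not limited to that gene, an observation made after its values were seen. Dgcr8 was the third of 7 consecutive protein-coding genes, from Ranbp1 to Txnrd2 over 239 kb (chr16:18239784-18479073), whose median normalised count over the 6 libraries was under 1 CPM. Ranbp1, which regulates the Ran GTPase that drives Xpo5 export, had 12 to 24 counts in 5 libraries and 213 in shNT replicate 2. Trmt2a, a tRNA methyltransferase gene that overlaps the 3' end of Dgcr8 on the other strand, had 2 to 8. The genes on either side were counted: Zdhhc8, a palmitoyltransferase, had 1893 to 2741 counts and Gnb1l, which encodes a WD-repeat protein, had 180 to 314. Medians under 1 CPM were common, at 49.6% of 21551 protein-coding genes. In the GENCODE M21 annotation, 17.1% of Dgcr8 exon bases are also exon bases of another gene on either strand, and 6.42% on the same strand. Neither the annotation used for counting nor the rule for reads that fit several genes is given in the sources used here. A lack of Dgcr8 transcripts and a failure to assign their reads therefore cannot be told apart, for Dgcr8 or for its neighbours.

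**Figure D1:**
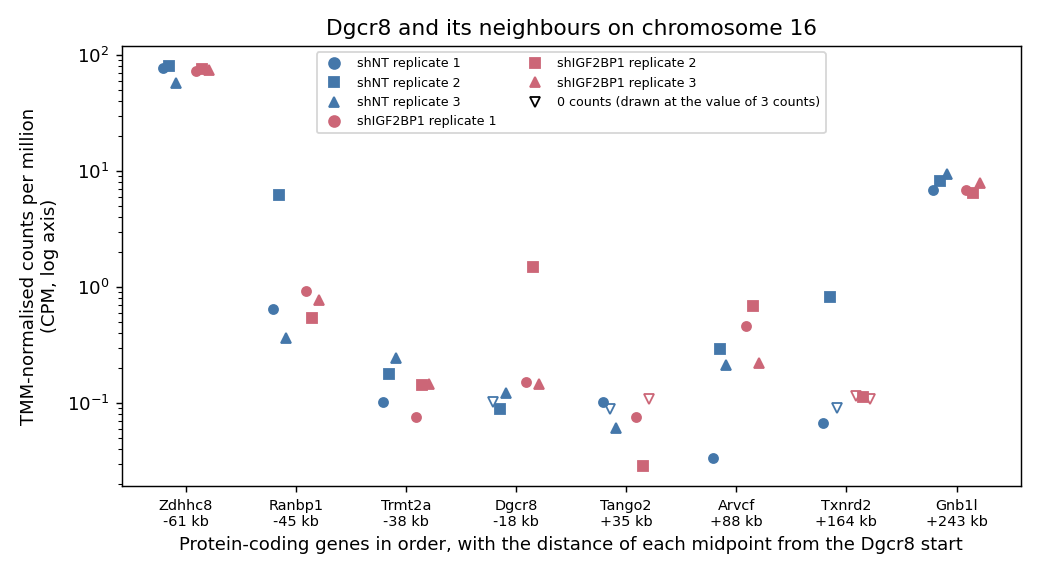
Normalised CPM (log axis) of Dgcr8, other genes of the run (not all are drawn) and the 1 gene on each side, in genomic order, with 1 point per library coloured by group. Open triangles are libraries with 0 counts, drawn at the value of 3 counts as the limit for a library without counts. Zdhhc8 and Gnb1l lie above the genes drawn between them in all 6 libraries.

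Ago4 had no counts at all. Ago4 (ENSMUSG00000042500, minus strand, chr4:126489541-126533472) had 0 counts in each of the 6 libraries, which allows up to 0.0851 to 0.114 CPM per library and 0.0162 CPM over all 6, from counting error alone. A count of 0 in all libraries was also found for 31.2% of protein-coding genes. Its paralogs Ago3 and Ago1 lie on the same strand of the same chromosome in the order Ago3, Ago1, Ago4, with gaps of 5.5 and 21.0 kb, and both were well counted. On the other side of Ago4, the checkpoint gene Clspn had 1460 to 2893 counts. Ago4 shares 0.0% of its exon bases with another annotated gene on either strand in GENCODE M21. The annotation used for counting and the rule for reads that fit several genes are not given. A lack of Ago4 transcripts and a failure to assign their reads therefore cannot be told apart.

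The promoters of the pair with few or no counts are shown because neither is poor in CpG. That dinucleotide marks the start sites of most widely expressed genes. Each is 300 bases around the RefSeq start on GRCm38, minus strand, with every CG in capitals. The Ago4 promoter, chr4:126533409-126533708, holds 54 CpGs, more than 99.7% of 32851 promoters of 300 bases, whose median is 7.
Ago4 promoter: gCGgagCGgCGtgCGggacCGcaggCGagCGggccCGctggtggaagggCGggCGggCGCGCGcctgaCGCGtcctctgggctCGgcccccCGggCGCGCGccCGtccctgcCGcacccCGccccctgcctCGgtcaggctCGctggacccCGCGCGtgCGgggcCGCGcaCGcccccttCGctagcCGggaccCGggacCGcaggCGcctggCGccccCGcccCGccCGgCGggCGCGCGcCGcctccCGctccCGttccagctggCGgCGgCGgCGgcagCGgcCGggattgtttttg
The Dgcr8 promoter, chr16:18289119-18289418, holds 43, more than 97.4% of promoters.
Dgcr8 promoter: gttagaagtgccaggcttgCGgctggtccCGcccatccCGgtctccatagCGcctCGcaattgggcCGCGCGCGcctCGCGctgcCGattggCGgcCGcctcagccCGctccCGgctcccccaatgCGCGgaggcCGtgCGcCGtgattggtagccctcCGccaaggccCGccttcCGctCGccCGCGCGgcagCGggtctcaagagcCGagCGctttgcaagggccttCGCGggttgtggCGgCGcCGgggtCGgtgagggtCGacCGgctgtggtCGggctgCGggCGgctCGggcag
Promoters of the well-counted members that matched held 16 CpGs at Prkra, 21 at Tarbp2 and 31 to 49 at Drosha, Xpo5, Ago1, Ago3 and Dicer1. The Dgcr8 count lay within the range of the well-counted members, and the Ago4 count lay above it. CpG counts say nothing about methylation or binding, which were not measured.

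The other 8 members had enough counts to be tested, and none passed the test between groups. By edgeR's quasi-likelihood test, with Benjamini-Hochberg adjustment over 13445 tested genes, 0 of 8 had an adjusted p under 0.05, where 0.0223% of all tested genes did. DESeq2, with and without that filter, and limma-voom also called 0. At an unadjusted p under 0.05 the count was again 0 of 8, against 7.16% of all tested genes. Log2 fold changes of shIGF2BP1 over shNT were positive for 2 members and negative for 6, with a median of -0.12 beside -0.01 over all tested genes. They ran from -0.19 to 0.42, and the one nearest to 0, of Tarbp2, was positive with scaling by library size only.

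**Figure D2:**
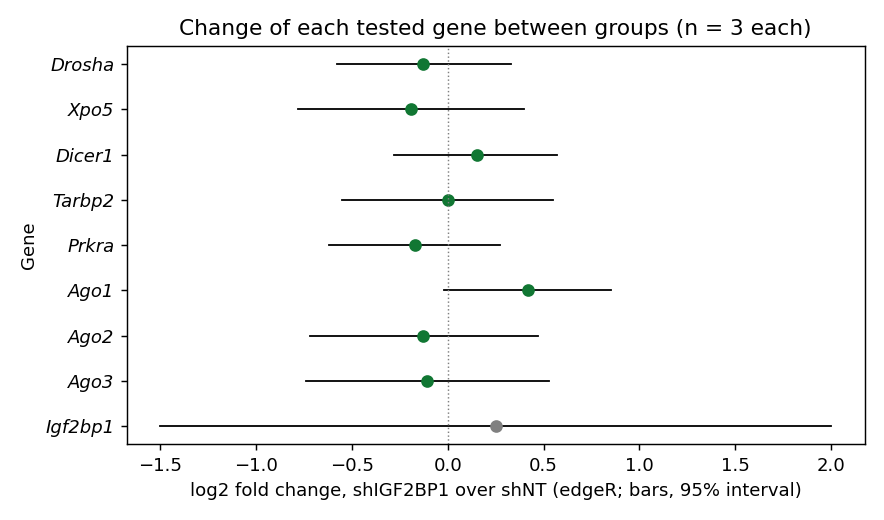
Log2 fold change of shIGF2BP1 over shNT for the 8 tested members and for Igf2bp1 (grey), with 95% intervals from edgeR, n = 3 libraries a group. Every interval includes 0. The Ago1 interval, from -0.02 to 0.85, has the lower end nearest to 0, and the Igf2bp1 interval is the widest.

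Drosha, which makes the first cut, had 143, 174 and 173 CPM in the shNT libraries and 137, 130 and 181 CPM in shIGF2BP1. The groups overlapped, and the lowest and highest library differed 1.39-fold. Its log2 fold change of -0.13 ± 0.21 (SE; edgeR adjusted p = 0.935) had a 95% interval from -0.58 to 0.33, or 0.668-fold to 1.25-fold.

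Xpo5 (ENSMUSG00000067150, plus strand, chr17:46202782-46243598), the nuclear export receptor for cut hairpins, had 71.6, 95.6 and 146 CPM in shNT and 83.3, 80.0 and 112 CPM in shIGF2BP1. Replicate 3 was the highest library within each group. The spread within shNT, 2.04-fold from the lowest to the highest library, exceeded the difference between the group means of 104 ± 37.9 and 91.7 ± 17.6 CPM (SD, n = 3 each). Its log2 fold change was -0.19 ± 0.27 (SE; edgeR adjusted p = 0.928) and became 0.13 without shNT replicate 3.

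Dicer1 (ENSMUSG00000041415, minus strand, chr12:104687742-104751952) varied little. It had 48.3, 60.2 and 58.8 CPM in shNT and 57.3, 62.8 and 65.1 CPM in shIGF2BP1. The lowest library was shNT replicate 1, the other 5 lay between 57.3 and 65.1 CPM, and the groups overlapped. A log2 fold change of 0.15 ± 0.19 (SE; edgeR adjusted p = 0.918) had a 95% interval from -0.28 to 0.57. Dicer1 is itself a known target of let-7, a microRNA that was not measured here.

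For both partners of Dicer the groups overlapped. Tarbp2 (ENSMUSG00000023051, plus strand, chr15:102518192-102523676) had 17.7, 20.2 and 18 CPM in shNT and 16.7, 23.6 and 15.4 CPM in shIGF2BP1, so the highest and the lowest library both belonged to shIGF2BP1. Its log2 fold change was -0.002 ± 0.25 (SE; edgeR adjusted p = 0.999). Prkra (ENSMUSG00000002731, minus strand, chr2:76629898-76648015), also an activator of the kinase PKR, had 57.5, 59.7 and 43.8 CPM in shNT and 49.7, 46.4 and 46.8 CPM in shIGF2BP1. The shIGF2BP1 values lay inside the shNT range, and the log2 fold change was -0.17 ± 0.20 (SE; edgeR adjusted p = 0.908).

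Ago1 (ENSMUSG00000041530, minus strand, chr4:126435012-126468583) was the tested member with the smallest p and the 1 of 8 whose groups did not overlap. It had 85.9, 125 and 103 CPM in shNT and 145, 137 and 138 CPM in shIGF2BP1. All 3 shIGF2BP1 libraries were above the highest shNT library, as in 6.06% of all tested genes, while 5.59% had all 3 below and 11.6% had no overlap in either direction. A log2 fold change of 0.42 ± 0.20 (SE) had a 95% interval from -0.02 to 0.85, with an edgeR p of 0.0609 and adjusted p of 0.723. It did not pass the test. The value ran from 0.29 without shNT replicate 1 to 0.56 without shNT replicate 2.

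Ago2 (ENSMUSG00000036698, minus strand, chr15:73095844-73184935) and Ago3 (ENSMUSG00000028842, minus strand, chr4:126331704-126429556) were low in the same library. Ago2 had 213, 407 and 410 CPM in shNT and 289, 344 and 310 CPM in shIGF2BP1. Ago3 had 47.2, 109 and 106 CPM in shNT and 78.0, 88.4 and 76.9 CPM in shIGF2BP1. For both, shNT replicate 1 was the lowest of the 6 libraries and the other shNT libraries were the highest. The log2 fold changes were -0.13 ± 0.27 for Ago2 and -0.11 ± 0.29 for Ago3 (SE; edgeR adjusted p = 0.952 and 0.961). Without shNT replicate 1 they were -0.38 and -0.40, with edgeR adjusted p values of 0.462 and 0.38. These are long messages, at 13.8 and 15.6 kb for the longest annotated transcript. Over the 286 tested genes with a transcript of 10 kb or longer, the median log2 deviation from the mean of the libraries was -0.45 in shNT replicate 1, 0.29 and 0.24 in shNT replicates 2 and 3, and -0.06 to -0.01 in shIGF2BP1. Over 3739 genes under 2 kb it was 0.16 in shNT replicate 1. This split by length was looked for after the Ago2 and Ago3 values were seen, and its part in them was not tested.

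Levels were compared between genes as RPKM, the TMM-normalised CPM divided by the gene's exon length in kb, with that length taken as the union of annotated exons. Over all 6 libraries Drosha had 26.4 ± 3.71, Prkra 25 ± 3.19 and Ago2 23.4 ± 5.36 RPKM (SD, n = 6 libraries). Their ranges overlapped, and Drosha exceeded Prkra in only 2 of 6 libraries, so these 3 cannot be ordered. Ago1 had 15.1 ± 2.84 and Xpo5 14.3 ± 3.98 RPKM, also overlapping. Below a gap without overlap came Ago3 at 5.08 ± 1.36, Tarbp2 at 4.09 ± 0.64 and Dicer1 at 3.51 ± 0.348 RPKM. Drosha lay at percentile 83.2 of the 13353 tested genes with a length, and Dicer1 at 32.2. Dgcr8 reached 0.192 RPKM in shIGF2BP1 replicate 2 and at most 0.0198 in the other libraries. With the longest transcript as the length, Tarbp2 at 6.8 and Dicer1 at 5.96 RPKM both passed Ago3 at 5.40, and Xpo5 at 19.3 passed Ago1 at 16.9.

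**Figure D3:**
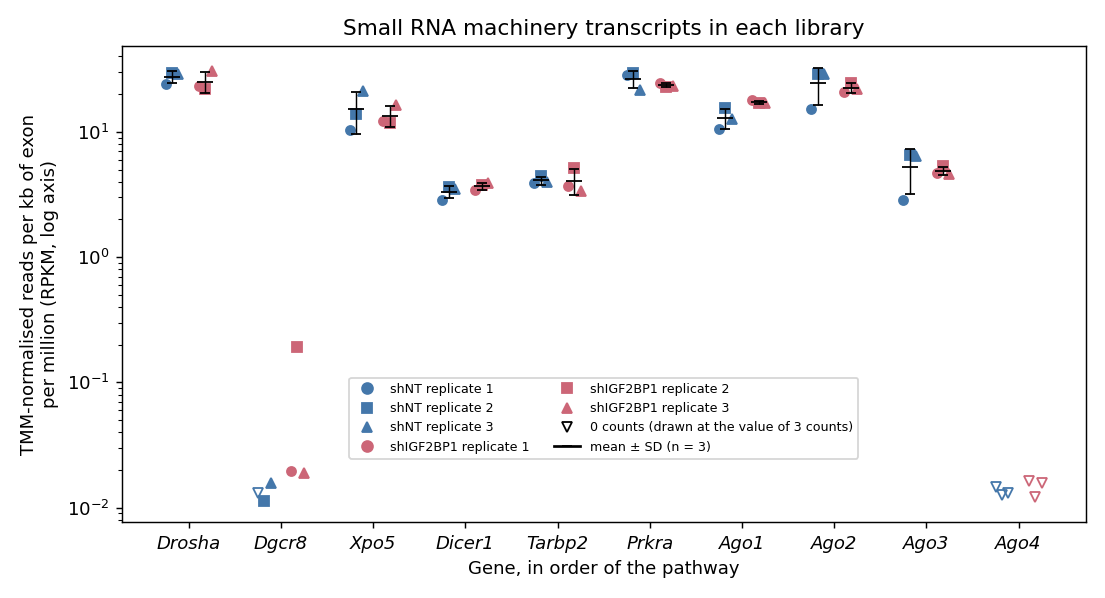
RPKM (log axis) of the 10 genes in pathway order, with 1 point per library, coloured by group and shaped by replicate, and bars for the mean ± SD of 3 libraries where all 6 have counts. Open triangles are libraries with 0 counts, drawn at the value of 3 counts. The 8 tested genes lie between 2.85 and 30.5 RPKM, while Dgcr8 and Ago4 lie below 0.2.

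Among the Argonautes, Ago2 had the largest share of the transcripts in all 6 libraries. Its share of the summed Argonaute RPKM was 53.1%, 56.9% and 60.5% in shNT and 47.8%, 52.4% and 50.5% in shIGF2BP1, and the groups did not overlap. The CPM of Ago2 itself did overlap. CPM without overlap in either direction was found for 11.6% of all tested genes, but no such rate was computed for shares. The longest transcripts of Ago2 and Ago1 differ, at 13.8 and 7.23 kb. The part of the split by length in these shares was not tested. Ago1 had 37.0%, 30.3% and 26.3% in shNT and 41.3%, 36.2% and 38.8% in shIGF2BP1, with shNT replicate 1 inside the shIGF2BP1 range. Ago3 held 9.96% to 13.2% in every library, and Ago4 had none. Group means of the Ago2 share were 56.8 ± 3.71% and 50.3 ± 2.32% (SD, n = 3 each), given as a description with no test. Summed Argonaute RPKM was 28.6 in shNT replicate 1 and 43.1 to 51.0 in the other 5 libraries. Transcript shares are not shares of protein or of loaded complexes.

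**Figure D4:**
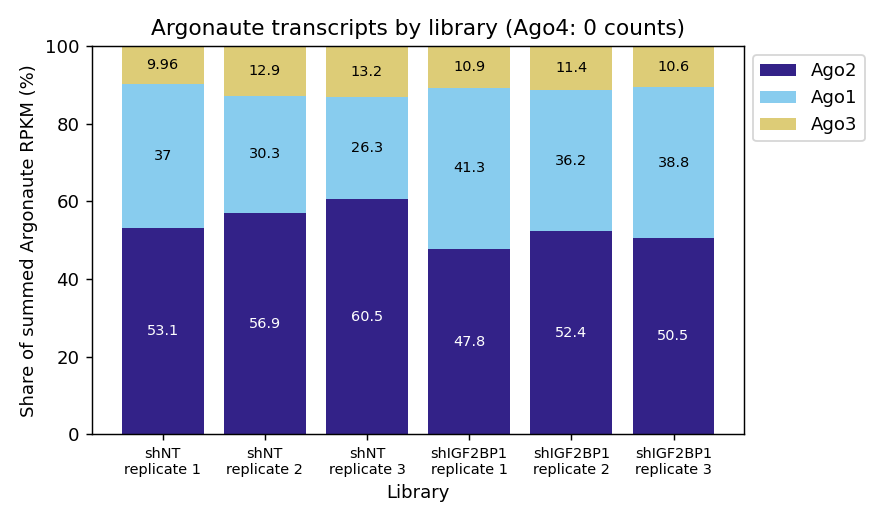
Share of the summed Argonaute RPKM (percent) held by Ago2, Ago1 and Ago3 in each of the 6 libraries, 1 bar per library. Ago2 shares run from 53.1% to 60.5% in shNT and from 47.8% to 52.4% in shIGF2BP1, and Ago4 had 0 counts.

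Genes that work with this machinery were taken from 5 lists of 103 names, of which 102 matched the table and 90 were tested. By edgeR 0 of the 90 passed an adjusted p of 0.05, where 0.0223% of all tested genes did, and 3 had an unadjusted p under 0.05, against 7.16% of all tested genes. All shIGF2BP1 libraries lay above all shNT libraries for 3 of the 90 and below them for 2, where 6.06% and 5.59% of all tested genes did so. Cofactors of the microprocessor and other nuclear RNA-binding proteins had 14 positive and 7 negative log2 fold changes of 21, with a median of 0.17 beside -0.01 over all tested genes. Without shNT replicate 3 there were 11 positive and 10 negative values, with a median of 0.02. Srrt, which links the cap-binding complex to primary microRNA processing, had 104 ± 39.1 CPM in shNT and 158 ± 5.28 CPM in shIGF2BP1 (SD, n = 3 each; edgeR adjusted p = 0.687). Adar, the editing enzyme that can alter hairpins, had 138 ± 40.1 and 104 ± 13.5 CPM (edgeR adjusted p = 0.778).

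Proteins that load or accompany Argonautes had 17 positive and 5 negative log2 fold changes of 22, with a median of 0.19 and no call. The summed level of the list was 5440 CPM in shNT replicate 3 and 9210 to 11100 CPM in the other 5 libraries. The chaperones Hspa8 and Hsp90ab1, named after their values were seen, had 290 and 1910 CPM in that library, against 1430 to 1450 and 4710 to 4790 CPM in the other shNT libraries. Without shNT replicate 3 the list had 18 positive and 4 negative values with a median of 0.14. Hsp90aa1, the chaperone that holds Argonautes open for loading, had 343 ± 46.3 CPM in shNT and 485 ± 135 CPM in shIGF2BP1 (SD, n = 3 each; edgeR adjusted p = 0.754). Its co-chaperones Ahsa1 and Fkbp4 had log2 fold changes of 0.44 and 0.40 (edgeR adjusted p = 0.754 and 0.811), which were 0.29 and 0.26 without shNT replicate 3. Mov10, an Argonaute-associated helicase, had 115 ± 17.8 and 139 ± 7.91 CPM (edgeR adjusted p = 0.824), and its log2 fold change of 0.28 was 0.15 without shNT replicate 3. GW182 scaffolds and silencing effectors, all 29 of them tested, split into 15 positive and 14 negative values with a median of 0.04. Without shNT replicate 1 they split into 9 positive and 20 negative, with a median of -0.09. Cnot7, a deadenylase of the CCR4-NOT complex, had 75.7 ± 2.28 and 57.1 ± 5.14 CPM, with no overlap between groups and an edgeR adjusted p of 0.695. The decapping cofactors Dcp1a and Dcp1b had log2 fold changes of -0.38 and -0.53 (edgeR adjusted p = 0.775 and 0.738).

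Enzymes that tail or degrade precursors had 5 positive and 8 negative log2 fold changes of 13 tested, with a median of -0.07. Tut4 and Tut7, the uridyltransferases that mark precursors, had log2 fold changes of 0.23 and -0.19 (edgeR adjusted p = 0.865 and 0.889). Dis3l2, the exonuclease that degrades uridylated let-7 precursors, had 31.4 ± 7.37 and 24.6 ± 3.28 CPM (SD, n = 3 each; edgeR adjusted p = 0.814). Of the paralogs that block let-7 maturation, both named after their values were seen, Lin28b had 232 to 808 counts in every library and Lin28a had 0 in all 6. Lin28b had a log2 fold change of 0.22 ± 0.43 (SE; edgeR adjusted p = 0.943).

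**Figure D5:**
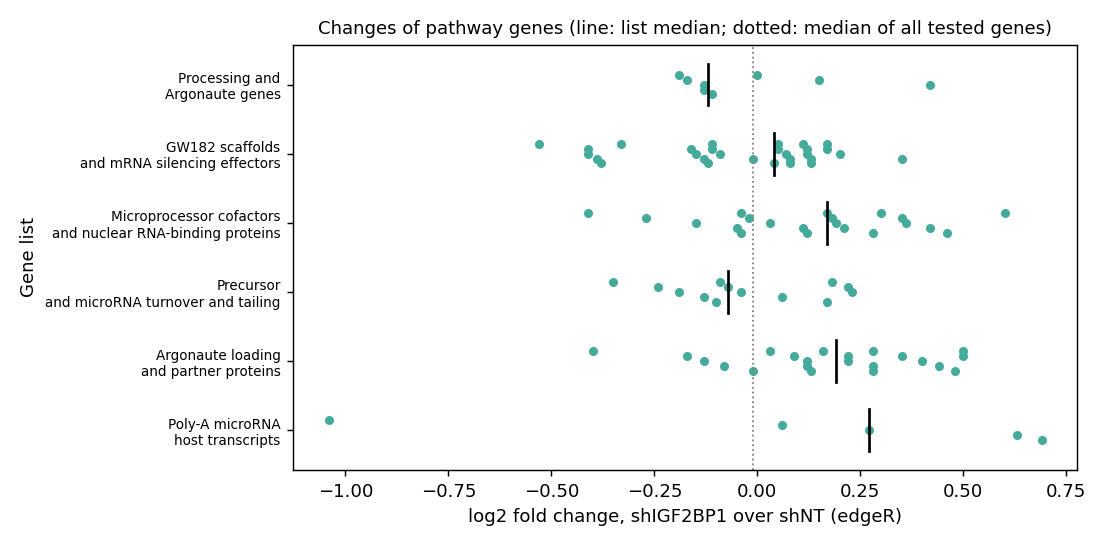
Log2 fold change of shIGF2BP1 over shNT for each tested gene of the machinery and of 5 pathway lists, with 1 point per gene, a black line at each list's median and a dotted line at the median of all tested genes. Medians run from -0.12 for the processing and Argonaute genes to 0.27 for the 5 tested host transcripts, and no point is a called gene.

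Primary transcripts that carry microRNA hairpins are what Drosha and DGCR8 cut. Mature microRNAs are not captured by poly-A libraries, so only the host transcripts were seen. Of 14 matched host transcripts 5 were tested and 0 called by edgeR, and their median log2 fold change of 0.27 ran from -0.10 without shIGF2BP1 replicate 2 to 1.15 without shNT replicate 1, where 7 passed the filter. Mir17hg (plus strand, chr14:115042879-115046727) carries a cluster whose best-known arms fall into 4 seed families, shown with seeds in capitals and sequences from RefSeq on GRCm38. The arms miR-17-5p and miR-20a-5p share a seed, as do miR-19a-3p and miR-19b-3p.
mmu-miR-17-5p: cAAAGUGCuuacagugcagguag
mmu-miR-20a-5p: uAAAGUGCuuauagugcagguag
mmu-miR-18a-5p: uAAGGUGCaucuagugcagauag
mmu-miR-19a-3p: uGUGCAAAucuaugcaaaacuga
mmu-miR-19b-3p: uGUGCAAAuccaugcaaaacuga
mmu-miR-92a-3p: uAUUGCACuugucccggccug
Mir17hg had 352, 159 and 183 counts in shNT and 245, 700 and 133 in shIGF2BP1. The groups overlapped widely, and the log2 fold change of 0.63 ± 0.51 (SE; edgeR adjusted p = 0.856) became -0.05 without shIGF2BP1 replicate 2. Dnm3os, the host of miR-199a and miR-214, was also highest in that library, with 242 CPM, followed by 184 in shIGF2BP1 replicate 1, 175 in shNT replicate 1 and 37.4 to 59.4 in the other libraries. Mir22hg had 168, 96 and 495 counts in shNT and 72, 172 and 103 in shIGF2BP1 (edgeR adjusted p = 0.754), with shNT replicate 3 far above the rest.

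Mir155hg, named after its values were seen, had 2, 1 and 5 counts in shNT and 15, 23 and 7 in shIGF2BP1, too few for the test. All shIGF2BP1 libraries lay above all shNT libraries, as in 6.06% of all tested genes. The pooled normalised ratio was 6.13 with a 95% counting interval from 2.86 to 15. With single libraries left out it ran from 4.54 (2.03 to 11.9) without shNT replicate 2 to 10.8 (3.45 to 54.1) without shNT replicate 3. These intervals carry only counting error and leave out the spread between libraries, so they are too narrow for a difference between groups. Without a filter on low counts its adjusted p was 0.343 by edgeR and 0.372 by DESeq2. The miR-155-5p arm it carries is shown with its seed in capitals (plus strand, chr16:84714143-84714165).
mmu-miR-155-5p: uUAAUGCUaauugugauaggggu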

How the data were processed

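The 6 libraries were poly-A RNA from M1 cells. Per the submitters' processing notes, bcl2fastq, HISAT2 2.1.0, HTSeq and the build GRCm38 were used. The authors deposited raw read counts per gene in 1 table of 43629 mouse genes and 92 spike-in rows that are 0 throughout. What annotation, strand setting and treatment of ambiguous reads were used is not given in the sources used here. Symbols, lengths and coordinates came from GENCODE M21 on GRCm38 and matched 42462 IDs. Sequences came from RefSeq on GRCm38.p6.

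Counts were normalised by TMM and tested across all genes with edgeR 4.0.16 (quasi-likelihood, robust, two-sided) in R 4.3.3, over 13445 genes kept by filterByExpr (minimum count 10, minimum total 15), with an adjusted p threshold of 0.05. Alternatives included DESeq2 1.42.0, run first on every gene with a count and then, once that result was known, on the genes edgeR kept, and limma-voom (limma 3.58.1). Scripts were tested on simulated data. Every pair of libraries differed by more than counting noise (mean chi-square per gene 46.8 to 251).

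Members and lists were chosen with earlier results of these data known. The rule for named genes took Igf2bp1, the 10 members, and up to 4 genes of each list with the smallest p. Not every such gene is printed, and a few genes are not reported here.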

Additional observations from a re-analysis of the deposited data

How the results depend on the processing

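No member and no pathway gene was called in the 14 refits of the test or at an adjusted p under 0.01. For the 8 members tested in the main fit the smallest adjusted p was 0.38, for Ago3 by edgeR without shNT replicate 1. Dgcr8, in the fits of every gene with a count, had an adjusted p of 0.142 by edgeR and 0.344 by DESeq2. Among all tested genes 3 were called. That number became 138 with no filter and 100 with DESeq2 on every gene with a count. DESeq2 on the genes edgeR kept, an alternative chosen after seeing the data, called 82. Limma-voom, a filter at mean CPM 5 and an adjusted p under 0.01 each called 1. Leaving out each library gave 1 to 5. The replicate block called 18 and changed no sign of a member. Deviations of libraries that share a number correlated at 0.19, -0.09 and 0.28, and those of libraries with unlike numbers at -0.37 to 0.22. The labels do not say that the number marks a shared culture, so it was not taken as a pairing.

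Of 112 refitted log2 fold changes of members, 11 changed sign. Tarbp2 was 0.08 with library size only, 0.004 with no filter and 0.02 at mean CPM 5. With single libraries left out, Tarbp2 ran from -0.20 to 0.11, Xpo5 from -0.40 to 0.13, Ago2 from -0.38 to 0.02, Ago3 from -0.40 to 0.08, Mir17hg from -0.05 to 1.15 and Mir99ahg from -0.30 to 0.60. Igf2bp1, which did not pass the filter at mean CPM 5, was -0.24 by limma-voom and -0.05 under the replicate block. Omitting 1 library at a time gave it -1.24 to 0.76.

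With the longest transcript as length, 10 of 16 group levels moved by more than 1 SD, while the Ago2 share moved by less. Dgcr8, Ago4 and Mir155hg had too few counts for the main test.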
